A study of Mus musculus with 6 samples.

Results

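The 10 mature miRNAs described here are markers of blood and immune cells, sequenced in c-kit+ cardiac progenitor cells of the mouse. They were chosen by name from the 1978 known miRNAs of the series. The leukocyte set has 7 members, mmu-miR-142a-3p, mmu-miR-142a-5p, mmu-miR-150-5p, mmu-miR-155-5p, mmu-miR-223-3p, mmu-miR-146a-5p and mmu-miR-146b-5p, and the erythroid set has 3, mmu-miR-144-3p, mmu-miR-451a and mmu-miR-486a-5p. The species prefix mmu is left out from here on. All 10 are rows of the table of known miRNAs, and 8 of them had enough counts to be tested.

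The cells came from digested hearts of healthy wild-type (WT) C57BL/6 males aged 4 to 6 weeks and were pulled out with magnetic beads carrying an antibody to c-kit. The control group, labelled 0 hours, and the group kept in hypoxic culture for 12 hours have 3 libraries each, and the treatment label reads hypoxia in both groups. The sources used here give neither the oxygen level nor a culture time for the controls beyond that label, so culture time and hypoxia cannot be told apart. The extraction label speaks of RNA in exosomes and the design text of cellular RNA, and the text below speaks of cells without settling this. The titles call the replicates biological without saying whether they are separate cultures, animals or pools. The p-values below therefore speak for how these 6 libraries spread and no further. Each library's column is headed by a digit, 0 or 1, then by a letter from A to C. Taking 0 for 0 hours and 1 for hypoxia is a reading of these headings, on which every direction between groups depends. No label ties a letter to a replicate number, and libraries are therefore called control A, hypoxia A and so on.

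c-kit is also the receptor by which haematopoietic progenitors and mast cells respond to stem cell factor, so a c-kit selection of heart tissue can hold blood cells. The miR-142 hairpin is expressed across haematopoietic lineages and very little outside them. miR-223 is a miRNA of neutrophils and other myeloid cells, and miR-150 of mature lymphocytes. miR-144 and miR-451a are made from one transcript driven by GATA factors in red cell precursors. By contrast, miR-146a, miR-146b and miR-155 are induced by NF-kB and related signals in leukocytes and also in endothelial cells and fibroblasts, where miR-146 dampens the signal by repressing the adaptors Traf6 and Irak1. miR-486a lies in an intron of Ank1 and is abundant in red cells and in striated muscle, so it does not mark red cells alone.

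The sequences below are shown because the seed, the stretch that pairs with targets, sets which members can act on the same messages. Of the 10 members, 8 matched an entry in RefSeq (build GRCm38.p6). Each is written 5′ to 3′ with the seed, bases 2 to 8, in capitals.
miR-142a-5p: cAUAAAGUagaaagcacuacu
miR-142a-3p: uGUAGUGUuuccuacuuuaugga
miR-155-5p: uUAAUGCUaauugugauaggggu
miR-223-3p: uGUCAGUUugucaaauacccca
miR-146a-5p: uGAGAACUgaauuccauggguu
miR-146b-5p: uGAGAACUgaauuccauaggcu
miR-144-3p: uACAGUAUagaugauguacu
miR-451a: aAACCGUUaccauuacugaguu
Only the pair miR-146a-5p and miR-146b-5p shared a seed among these 8. Over their 22 bases they differed at 2 positions counted from the 5′ end, G18A and U21C (the base of miR-146a-5p first), both outside the seed. Among the 1679 known miRNAs of the table with a RefSeq sequence, no other carried this seed, and each of the other 6 seeds belonged to its member alone.

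A pair of hairpins is shown because their arms were counted separately or because of how the mature strand lies in them. Mature strands are in capitals.
Mir142: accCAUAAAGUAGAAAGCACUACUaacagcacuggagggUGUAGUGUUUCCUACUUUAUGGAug
Mir451a: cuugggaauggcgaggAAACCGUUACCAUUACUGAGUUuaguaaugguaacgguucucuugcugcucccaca
Mir142 gives both miR-142a arms, one from each side of the stem. In Mir451a the mature strand starts at base 17 and ends at base 38 of 72, running from the stem into the loop. This hairpin is known to be cut by Argonaute 2 and not by Dicer.

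The genes of the members lie at separate places in the genome, apart from Mir144 and Mir451a. In GENCODE M21 (GRCm38), Mir142 is on chromosome 11, 87756864 to 87756927, plus strand, in an intron of the noncoding Mir142hg. Mir155 is on chromosome 16, 84714140 to 84714204, plus strand, in an exon of the noncoding Mir155hg. Mir146, the gene of miR-146a, is on chromosome 11, 43374397 to 43374461, minus strand, with no host gene on that strand, whereas Mir146b is on chromosome 19, 46342762 to 46342870, plus strand, in an intron of Mfsd13a. Mir150 is on chromosome 7, 45121757 to 45121821, plus strand, and Mir223 on chromosome X, 96242817 to 96242926, plus strand, in an exon of the noncoding F630028O10Rik. Mir144 (78073005 to 78073070) and Mir451a (78073170 to 78073241) are on the plus strand of chromosome 11 with 99 bases between them. Mir486 is on chromosome 8, 23142555 to 23142682, plus strand, in an intron of Ank1.

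Libraries held 12285970 to 16975987 counts of known miRNAs. CPM is the count per 1000000 counts after scaling by TMM, a method that sets libraries to a common size from the bulk of miRNAs. The matched mature strands are 20 to 23 bases long, so levels of different miRNAs were compared without a length correction, although ligation and amplification can favour some sequences. Where a miRNA had no count, up to 0.243 CPM (3 counts) was still possible in the shallowest library, and such limits cover counting error only. Fewer cells of a type and less RNA per cell cannot be told apart in such bulk libraries.

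The miRNAs that mark blood cells most strictly were present only in traces, while the members that are also induced outside blood were abundant. Counts of miR-223-3p were 6, 8 and 11 in control A, B and C, then 14, 2 and 8 under hypoxia, in the same order. Those of miR-142a-3p were 34, 9 and 20 in control and 33, 23 and 19 in hypoxia, and those of miR-142a-5p were 36, 20 and 43 in control and 34, 34 and 30 in hypoxia. For these 3 strands no library reached 3 CPM, and the groups overlapped in each case. In the deepest library, hypoxia B, the 2 counts of miR-223-3p corresponded to 0.123 CPM with an exact Clopper-Pearson 95% interval of 0.0149 to 0.443.

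miR-150-5p, the lymphocyte miRNA, stood higher, at 7.53, 20.0 and 17.6 CPM in the control libraries A, B and C, then 5.77, 21.3 and 20.3 under hypoxia. It was low in both A libraries and 2.98 times as high on average in the other 4, so the groups overlapped.

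miR-146a-5p was the most abundant member. Its levels were 2412, 3103 and 3038 CPM in control and 1866, 2341 and 3016 in hypoxia, in the order A, B, C, and by mean share of counts it ranked 38 among all 1978 known miRNAs. miR-146b-5p had 862, 987 and 1084 CPM in control and 912, 803 and 901 in hypoxia, and miR-155-5p 894, 598 and 621 in control and 1013, 493 and 539 in hypoxia. Both A libraries were the highest for miR-155-5p, and for all 3 miRNAs the groups overlapped. Together miR-146a-5p, miR-146b-5p and miR-155-5p averaged 4247 CPM, 215 times the 19.8 CPM of the miR-142a arms, miR-150-5p and miR-223-3p combined. This grouping of the leukocyte members was made with their values known, so the size of the ratio depends on the choice and carries no test.

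Among the erythroid members, miR-144-3p was nearly absent, with 4, 1 and 0 counts in the controls (A, B, C), then 0, 0 and 1 under hypoxia. miR-451a, from the neighbouring hairpin, was counted 13, 15 and 81 times in control and 27, 94 and 31 times in hypoxia. Its highest libraries, control C with 5.16 CPM and hypoxia B with 5.77, belonged to different groups and different letters. Most of the erythroid sum, 90.3%, was miR-486a-5p, at 34.3, 31.0 and 27.4 CPM in control and 30.4, 26.1 and 21.3 in hypoxia. These values were the same to the last count as those of miR-486b-5p, so the reads of the pair are shared and cannot be assigned to one of the 2 genes.

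**Figure D1:**
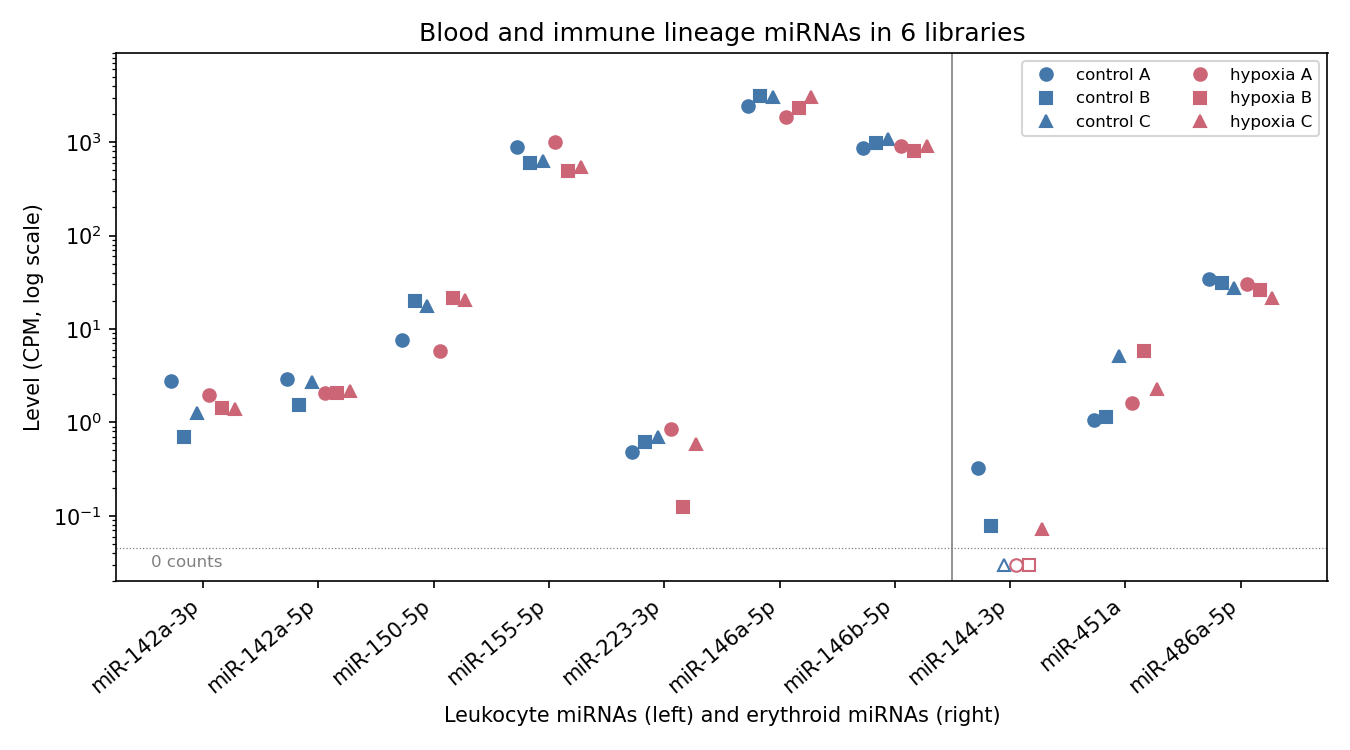
Level of each of the 10 miRNAs in each library in CPM on a log axis, with colour for the group and symbol for the letter. Open symbols at the bottom are libraries with 0 counts. miR-146a-5p, miR-146b-5p and miR-155-5p lie between 493 and 3103 CPM, while the miR-142a arms, miR-223-3p and miR-144-3p stay under 3 CPM in all 6 libraries.

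All 7 leukocyte members averaged 4267 CPM, above the cardiomyocyte list and below the lists of endothelium and of fibroblasts and smooth muscle. A part of them, the miR-142a arms and miR-223-3p, had a lower sum than any of these lists. This part was picked with the values known, whereas the other lists were not narrowed, so its low rank follows from the choice. The 2 endothelial arms of miR-126a summed to 231039 CPM on average (23.1% of counts), 5 miRNAs of fibroblasts and smooth muscle to 37201 CPM, and 5 of cardiomyocytes to 124 CPM. Most of the cardiomyocyte sum was miR-1a-3p, at 98.4 CPM in control and 119 in hypoxia. In the same list miR-208a-3p (0.221 and 0.401 CPM), miR-208b-3p (0.0424 and 0.0814) and miR-499-5p (2.19 and 3.12) were traces too. The miR-142a arms and miR-223-3p together reached 4.39 CPM, and the 3 erythroid members 31.3 CPM. The library with the most miR-142a and miR-223 was control A with 6.15 CPM, against 234207 CPM of the endothelial arms in the same library. The name blood and immune lineage thus covers members at very different levels: the pan-haematopoietic miR-142a arms stayed below 3 CPM in libraries where miR-146a-5p had 1866 CPM or more. Which cells carried miR-126a, miR-146 or miR-155 was not tested.

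**Figure D2:**
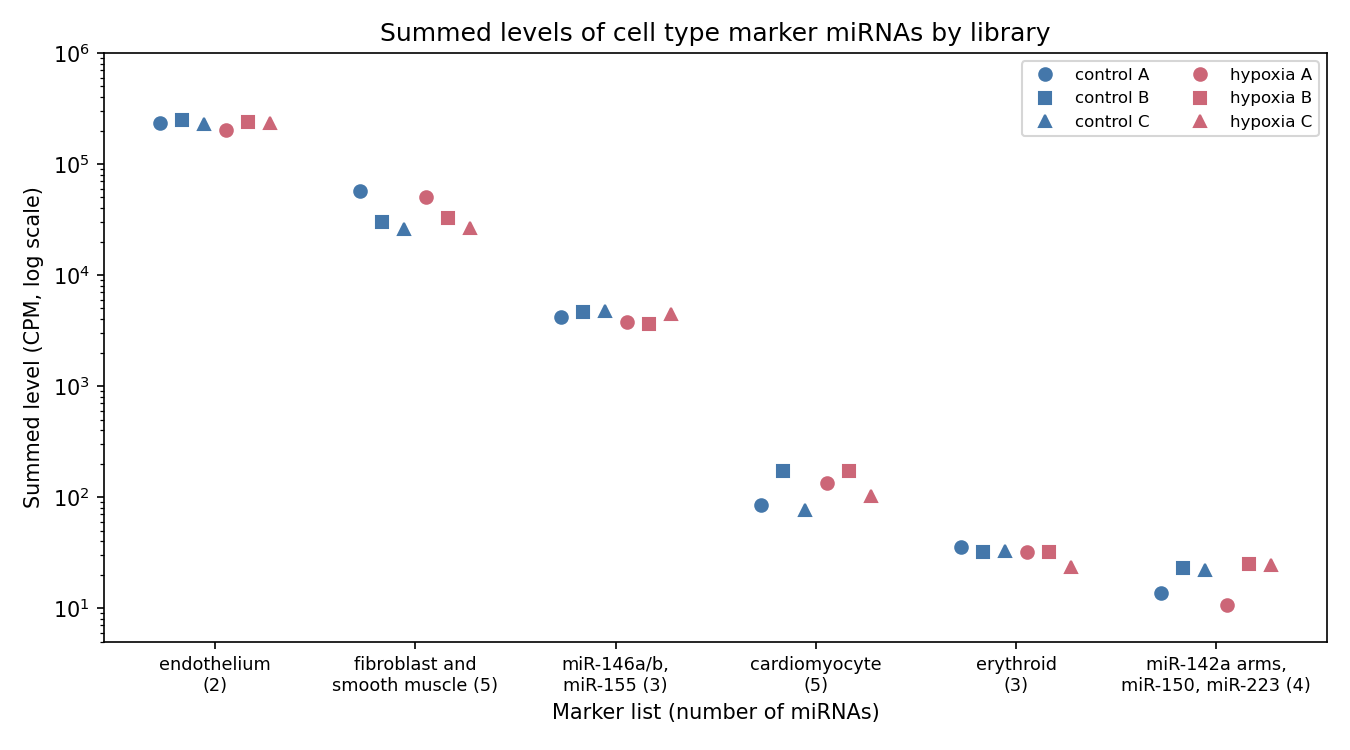
Summed CPM of marker lists in each library on a log axis, with the number of miRNAs in brackets. Endothelial arms stand near 231039 CPM, and the miR-142a arms, miR-150-5p and miR-223-3p together between 10.6 and 24.9 CPM. Both A libraries stand above the other 4 in the fibroblast and smooth muscle list.

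The comparison of hypoxia with control asked whether these miRNAs differed after 12 hours of hypoxic culture, and no member passed the test. Of the 8 tested, 0 were called at an adjusted p of 0.05 by edgeR's quasi-likelihood test, and none had an unadjusted p under 0.05 there, in DESeq2 or in limma-voom. The background was equally empty, with 0 of 619 tested known miRNAs called (0%) and 42 (6.79%) at an unadjusted p under 0.05 in edgeR (43 of the same 619 in limma-voom, and 45 of the 1322 that DESeq2 tested). At an adjusted p of 0.05, DESeq2 called 1 known miRNA and limma-voom 0. Of these 8 members 0 had groups that did not overlap, against 12.9% of all tested miRNAs. Log2 fold changes, hypoxia over control, were below 0 for 5 of the 8 and had a median of -0.11, beside 48.8% below 0 and a median of 0.01 over all tested. miR-223-3p and miR-144-3p had too few counts for the test.

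miR-146a-5p averaged 2851 ± 382 CPM in control and 2408 ± 578 in hypoxia (SD, n = 3 per group). Its log2 fold change was -0.24 (SE 0.21, edgeR adjusted p = 0.92), with a 95% interval of the difference from -0.72 to 0.23. It was -0.09 without hypoxia A and -0.46 without hypoxia C. The seed partner miR-146b-5p gave 978 ± 112 and 872 ± 59.9 CPM, a log2 fold change of -0.17 (interval -0.54 to 0.21). Both intervals of the seed partners stayed within 1 log2 unit of 0, which does not show that their levels were the same.

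miR-155-5p, which in activated immune cells represses Socs1 and Inpp5d, gave 704 ± 165 CPM in control and 681 ± 288 in hypoxia (SD, n = 3 per group). The log2 fold change was -0.05 (SE 0.30, interval -0.74 to 0.65), and it changed sign when libraries were scaled to their totals only (0.028). Within letters hypoxia was higher by 0.18 in A and lower in B and C (log2 differences of -0.28 and -0.20).

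miR-486a-5p differed by -0.25 (SE 0.21, interval -0.73 to 0.23), and its hypoxia library was the lower one within every letter, with log2 differences of -0.18, -0.24 and -0.36 in A, B and C. The overall value was -0.16 without hypoxia C and -0.38 without hypoxia A. The muscle markers, measured beside it because miR-486a is also a muscle miRNA, summed to 110 ± 52.2 CPM in control and 137 ± 35.3 in hypoxia (SD, n = 3 per group), and their part in this difference was not tested.

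The rarer members had wide intervals. miR-150-5p gave a log2 fold change of 0.07 (-1.10 to 1.23), miR-142a-3p 0.03 (-1.13 to 1.19), miR-142a-5p -0.19 (-0.97 to 0.59) and miR-451a 0.37 (-1.22 to 1.96). Leaving out hypoxia B turned the value of miR-451a to -0.39, so its sign rested on that library, and leaving out control C moved it to 1.54. With the library letter as a block, described further on, the interval of miR-150-5p narrowed to -0.36 to 0.36. It leaves out a 2-fold change only if the letters pair the libraries, which no label gives. The interval without the block holds such a change. With the block, the intervals of miR-142a-3p (-0.84 to 1.11) and miR-451a (-0.80 to 1.77) still held a 2-fold increase.

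Summed over the leukocyte members, the level was 4553 ± 323 CPM in control and 3982 ± 438 in hypoxia (SD, n = 3 per group), of which miR-146a-5p alone made up 61.4% of counts. The libraries with least were hypoxia B with 3662 CPM and hypoxia A with 3802, and hypoxia C with 4481 lay among the controls (4182 to 4765). The erythroid sum was 33.5 ± 1.94 CPM in control and 29.2 ± 4.82 in hypoxia, with hypoxia C lowest at 23.6. Without miR-486a-5p the erythroid log2 ratio went from -0.20 to 0.32, carried by miR-451a.

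**Figure D3:**
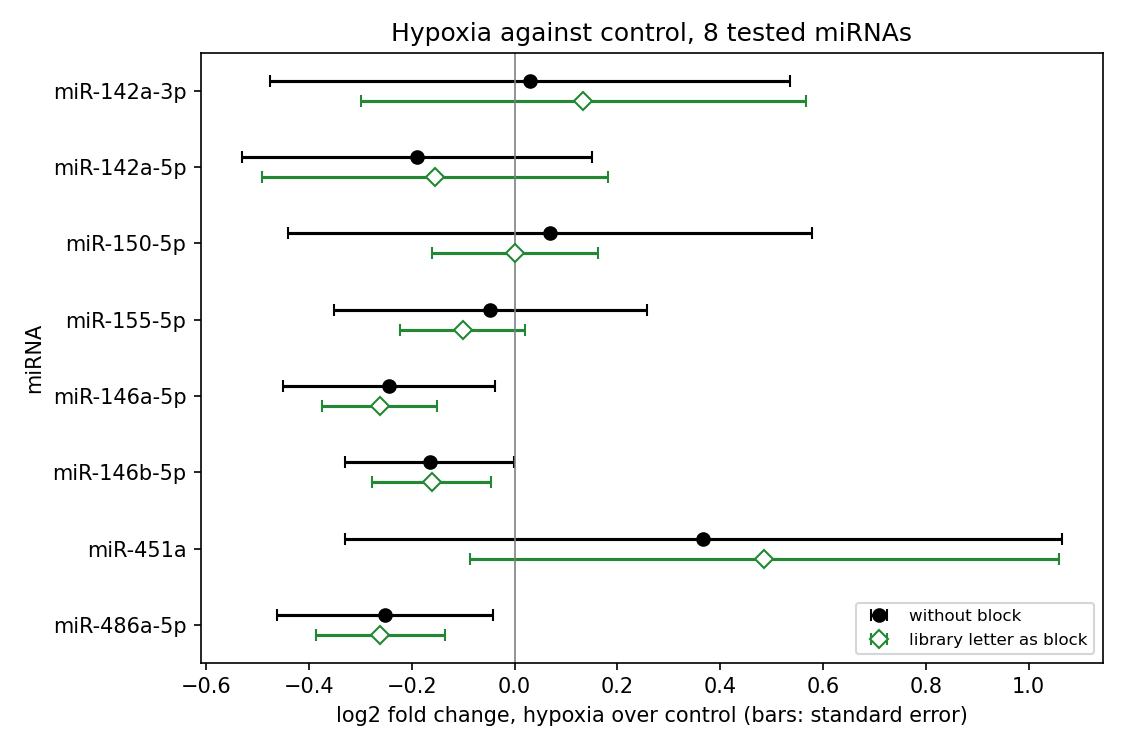
Log2 fold change of hypoxia over control for the 8 tested miRNAs, with standard errors as bars, from edgeR without a block (black circles) and with the library letter as a block (open diamonds). No miRNA passed in either fit, and the bars of miR-150-5p and miR-155-5p shorten with the block, to 0.16 and 0.12.

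For the hairpins of miR-146a, miR-146b, miR-150 and miR-155 the opposite arm was far rarer than the member strand. Over all 6 libraries miR-146a-5p outnumbered miR-146a-3p 3176 to 1, miR-146b-5p its 3p arm 469 to 1, miR-150-5p its 3p arm 150.2 to 1 and miR-155-5p its 3p arm 80.3 to 1. The gap was smaller or reversed in the sparse hairpins. miR-223-3p had 49 counts against 14 of miR-223-5p, and miR-144-3p had 6 against 27 of miR-144-5p, so in the latter hairpin the other arm was the more frequent. miR-142b and miR-451b, read from the strands opposite Mir142 and Mir451a, had 0 counts in every library, which allows up to 0.299 CPM in the shallowest. The 2 miR-486 3p rows were also identical to each other, at 3.38 ± 1.03 CPM in control and 2.34 ± 0.111 in hypoxia (SD, n = 3 per group). Their groups did not overlap, as for 12.9% of all tested miRNAs, and the log2 fold change of -0.54 did not pass (SE 0.32, edgeR adjusted p = 0.82).

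Both miR-142a arms were counted in every library, 197 times for 5p and 138 for 3p in all. The 5p arm took 51.4%, 69.0% and 68.3% of the hairpin's counts in the controls (A, B, C), then 50.7%, 59.6% and 61.2% under hypoxia. These shares rest on 29 to 70 counts, and the exact Clopper-Pearson 95% interval was 49.2% to 84.7% for control B and 38.2% to 63.2% for hypoxia A. Only in control C, at 55.3% to 79.4%, did the interval leave out equal shares of the arms. The log2 ratio of 5p to 3p averaged 0.78 ± 0.60 in control and 0.42 ± 0.33 in hypoxia (SD, n = 3 per group), a difference within the spread (exact permutation test, two-sided, p = 0.4, where 3 against 3 cannot go below 0.1). The difference of -0.36 became -0.71 without control A and -0.17 without control B or hypoxia A. The 5p share was lowest in the A library of each group.

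Several members differed between library letters. Same-lettered libraries of the 2 groups deviated together from their group means, as given with the processing, and a test of the letter was added after these values were seen. The test takes all 3 letters at once, so its p does not say which letter differs, and the differences of A from the mean of B and C given below are descriptions. In an additive edgeR model of letter and group, 3 of the 8 tested members were called for the letter (miR-150-5p, miR-155-5p and miR-146a-5p), beside 160 of 619 known miRNAs (25.8%). No source used here says what the letters stand for.

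miR-150-5p was called for the letter (edgeR adjusted p = 0.00065), and A lay below the mean of B and C, at a log2 difference of -1.58, with 5.77 and 7.53 CPM in A against 17.6 to 21.3 in the other 4. For miR-155-5p (edgeR adjusted p = 0.0041 for the letter) A lay higher, at a log2 difference of 0.77, with 894 and 1013 CPM against 493 to 621. Its rare partner strand miR-155-3p, from the same hairpin, had 15.1 and 11.7 CPM in A against 5.21 to 7.55 and was called for the letter too (edgeR adjusted p = 0.0052), at a log2 difference of 1.04. In these 3 the A libraries of both groups lay outside the range of the other 4. The A libraries also lay apart for miR-142a-3p, at 1.98 to 2.75 CPM against 0.692 to 1.41. That strand had 9 to 34 counts per library and was not called for the letter (edgeR adjusted p = 0.26).

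miR-146a-5p only just passed the letter test (edgeR adjusted p = 0.048). Its log2 difference of A from B and C was -0.43, and its A and other libraries overlapped (1866 to 2412 against 2341 to 3103 CPM). For miR-146b-5p the difference was -0.08 (edgeR adjusted p = 0.66), so the seed partners were not called alike, and the difference between them was not tested. The ratio of miR-146a-5p to miR-146b-5p ran from 2.05 in hypoxia A to 3.35 in hypoxia C.

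Fibroblast, smooth muscle and cardiomyocyte miRNAs moved with the letter as well. The summed level of the fibroblast and smooth muscle list was 57420 and 50346 CPM in control A and hypoxia A and 26072 to 32967 in the other 4, with all 5 list members called for the letter. miR-143-3p and miR-199a-5p, for instance, had letter adjusted p-values of 0.00064 and 0.00054 in edgeR and log2 differences of A from B and C of 0.90 and 1.12. In the cardiomyocyte list the B libraries were the high ones, with a sum of 171 and 173 CPM against 76.4 to 135 in A and C, and miR-1a-3p and miR-133a-3p were called for the letter (edgeR adjusted p = 0.0092 and 0.0052). The endothelial sum was 200661 and 234207 CPM in A and 227198 to 249640 in the others. The summed miR-142a arms and miR-223-3p were 6.15 and 4.87 CPM in A and 2.84 to 4.71 in the others, whereas miR-150-5p was low in A. The part of other cell types in the letter differences of miR-150-5p and miR-155-5p was not tested.

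**Figure D4:**
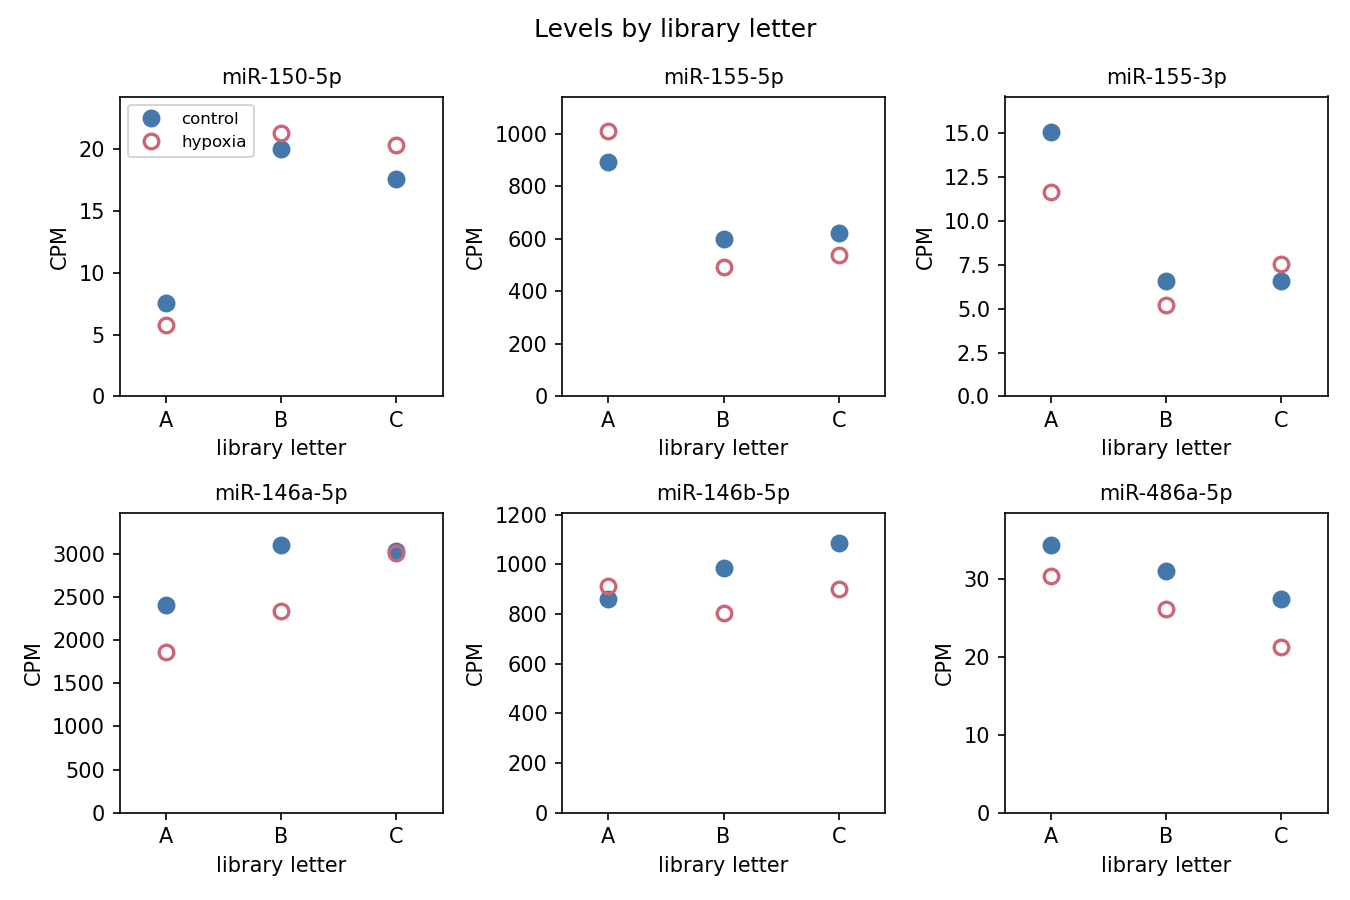
CPM of 5 members and of miR-155-3p by library letter, with control as filled and hypoxia as open circles, each axis starting at 0. In both groups the A library is lowest for miR-150-5p (7.53 and 5.77 CPM) and highest for both miR-155 strands.

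With the letter as a block, hypoxia against control gave 14 calls among the 619 tested miRNAs (2.26%), and 0 of the 8 members were among them. The count was 0 without letter A or letter C and 23 without letter B. The member with the smallest p was miR-146a-5p, with a log2 fold change of -0.26 (SE 0.11, unadjusted p = 0.042, edgeR adjusted p = 0.22). It was the only one of the 8 with an unadjusted p under 0.05, where 132 of all 619 (21.3%) had one. In that fit the standard error of miR-150-5p fell from 0.51 to 0.16 and that of miR-155-5p from 0.30 to 0.12, with log2 fold changes of 0.00 and -0.10.

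By the shape of their levels over the 6 libraries, the members resembled different miRNAs. The measure was the root mean square difference of log2 CPM centred on each miRNA's mean, over 371 miRNAs with at least 10 CPM, where 0 means the same shape. miR-155-5p was closest to miR-214-5p (0.09) and miR-337-5p (0.11), against a median of 0.45 over the others. miR-150-5p was closest to miR-455-3p (0.29) and miR-1945 (0.40), with a median of 0.78. miR-455-3p had 106 and 86.0 CPM in the A libraries and 168 to 276 in the others, low in A as miR-150-5p was. miR-146a-5p was nearest to miR-574-3p (0.11) and miR-185-5p (0.12), miR-146b-5p to miR-10a-3p (0.08) and miR-351-5p (0.09), and miR-486a-5p, after its copy miR-486b-5p, to miR-532-5p (0.10). miR-214-5p shared the letter pattern of miR-155-5p, with 189 and 188 CPM in the A libraries and 90.5 to 115 in the others. These miRNAs were picked as the closest over the same 6 libraries. Shared letter patterns and distances below the median therefore follow from the choice and carry no test.

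A wider list of 25 miRNAs known for roles in blood and immune cells was read alongside, of which 22 were tested. None was called by edgeR without or with the block, 11 lay above 0 and 11 below, and the median log2 fold change was 0.00. At an unadjusted p under 0.05 there was 1 without the block (6.79% of all tested) and 3 with it (21.3% of all tested), miR-130a-3p, miR-181c-5p and miR-29a-3p. The one in both fits was miR-130a-3p, a miRNA of haematopoietic progenitors and megakaryocytes also found in endothelium. Its level was 349 ± 63.0 CPM in control and 483 ± 49.7 in hypoxia (SD, n = 3 per group), and its groups did not overlap (log2 fold change 0.47, SE 0.20, edgeR adjusted p = 0.72). The groups also did not overlap for miR-92a-3p, at 1129 ± 91.1 and 981 ± 50.6 CPM (log2 fold change -0.20, SE 0.15). These were the only 2 of the 22 without overlap, against 12.9% of all tested miRNAs, and this is not read as particular to them.

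The list spanned a wide range of levels. miR-511-3p and miR-511-5p, encoded in the macrophage gene Mrc1, had 0 to 8 and 0 to 1 counts per library, and miR-363-3p had 1 to 5. The levels that follow are group means of more abundant miRNAs whose groups overlapped. miR-99b-5p and let-7e-5p, of a cluster known from haematopoietic stem cells that also holds miR-125a, stood at 7043 and 2522 CPM in control and 7306 and 2683 in hypoxia. miR-181a-5p, a modulator of T cell receptor signalling, had 1481 and 1561 CPM, and miR-139-5p 2039 and 1848 CPM. miR-342-3p, in the gene Evl, had 141 and 128 CPM, miR-652-3p 837 and 830, and miR-147-3p, which is induced in stimulated macrophages, 175 and 193. The most abundant of the list was miR-24-3p, at 12361 and 11365 CPM. miR-125a-5p had 3608 and 3010 CPM, miR-191-5p 1594 and 1518, and miR-20a-5p 865 and 917. Levels of miR-181b-5p were 648 and 683 CPM, of miR-17-5p 633 and 664, and of miR-181d-5p 392 and 379.

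The letter was called for 7 of these 22 miRNAs. miR-147-3p (edgeR adjusted p = 0.0059 for the letter) had 137 and 119 CPM in A, 226 and 263 in B and 163 and 195 in C. miR-652-3p (edgeR adjusted p = 0.0024) had 1055 and 1030 CPM in A, 546 and 593 in B and 909 and 867 in C, so B was the high letter for the former and the low one for the latter. This count stands beside 25.8% of all tested miRNAs and is not read as particular to blood miRNAs.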

How the data were processed

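Small RNA libraries of 3 control and 3 hypoxia samples were read from a table of known miRNAs, which the authors deposited as whole-number counts with 1 column per library. A table of 838 predicted miRNAs (totals 2510 to 4278) was not used for the members. Among tools and builds, the submitters' processing notes list bcl2fastq 2.0, DESeq2 and mm10 without a role, and no source used here gives the aligner or counter. Reads matching several miRNAs may be counted for each, as for miR-486a-5p and miR-486b-5p.

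Counts were filtered (filterByExpr, 619 of 1978 rows), scaled by TMM and tested in R 4.3.3 with edgeR 4.0.16 (quasi-likelihood test, Benjamini-Hochberg at 0.05 over all tested rows). SE was derived as |log2 fold change| over the square root of F. Likeness used log2 CPM with a prior count of 2. DESeq2 1.42.0 and limma 3.58.1 (voom) served as alternatives. The fit was checked on simulated counts. Depth was 12285970 to 16975987 counts.

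Deviations of same-lettered libraries from their group means correlated at 0.52 (A), 0.43 (B) and 0.28 (C), and of unlike letters at -0.44 to 0.12, so the letter was used as a block in an alternative fit. The pairing comes from column names and values, not from labels. No 2 libraries agreed within counting noise (lowest chi-square per degree of freedom 85.9 over 15 pairs). The named miRNAs are all members, their opposite arms and copies, the 2 most alike per member of at least 10 CPM, and those of the wider list with at least 100 CPM or an unadjusted p under 0.05. Members of that list outside this rule (miR-511-3p, miR-511-5p and miR-363-3p) were named after their counts were seen. The members and lists were chosen with earlier results of these data known.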

Additional observations from a re-analysis of the deposited data

How the results depend on the processing

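The number of members called stayed at 0 under all 17 alternatives (3 other scalings, no filter, a 10 CPM filter, DESeq2, limma-voom, the letter as replicate block with all libraries and without each letter, and each library left out). The log2 fold changes of miR-146a-5p, miR-146b-5p and miR-486a-5p stayed below 0 in all 17, but with 1 library left out they ran from -0.46 to -0.09, -0.27 to -0.09 and -0.38 to -0.16. The number of all known miRNAs called was 0 as reported, 4 without the filter, 1 with DESeq2 and 14 with the replicate block. It was 23 with the block but without letter B, and 0 under the others. The block fits without letter A, B or C were all added after seeing the data.

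Values near 0 changed sign. For miR-155-5p it was 0.028 with library size only, and leaving out 1 library gave -0.45 to 0.13. For miR-150-5p it was -0.047 with limma-voom, -0.26 to 0.46 with 1 library left out, and with the block -0.078 without letter B and -0.13 without letter C. miR-142a-3p ranged from -0.34 to 0.65 with 1 library left out and was -0.24 with the block without letter B. miR-142a-5p was 0.029 with the block without letter A. miR-451a ranged from -0.39 to 1.54 with 1 library left out and was -0.47 with the block without letter B. The erythroid sum had a log2 ratio of 0.32 without miR-486a-5p, its most abundant member, against -0.20 with it. The miR-142a arm difference of -0.36 kept its sign and ran from -0.71 to -0.17 with 1 library left out. The cause of these shifts was not tested. Those with library size only, with limma-voom and without miR-486a-5p used all 6 libraries, and the others used fewer. Depth limits miR-223-3p and miR-144-3p, with at most 14 and 4 counts per library.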
